A study of Mus musculus with 10 samples.

Results

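Persistent H3K27me3 regions were those without a peak in the parental lymphoma line, with a peak in both the R100 and the R500 line, and with a peak in R1000, in R4000 or in both. They were found by dropping repeated entries of the 5 peak lists and merging peaks that overlapped by at least 1 bp into union regions. There were 1757 of them among 47264 union regions. They were selected on presence in the lists, so their lengths in each line are given as a description and no test was made on them. The remaining 3095 regions gained in both R100 and R500 had no peak in R1000 or R4000 and are called transient.

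The study asked how a B-cell lymphoma line becomes resistant to mafosfamide, a DNA alkylating agent related to cyclophosphamide. All 5 lines carry the Eμ-Myc transgene, in which the immunoglobulin heavy chain enhancer drives Myc in B cells, lack Cdkn2a (Cdkn2a-/-) and come from C57BL/6J B cells. The parental line is 1 culture of such a lymphoma. From it came R100, R500, R1000 and R4000, surviving cells at 100, 500, 1000 and 4000 nM mafosfamide, which by the study's account were harvested on days 10, 18, 23 and 37, although the dose escalation is described as lasting 34 days. Chromatin for the anti-H3K27me3 precipitation came from lines grown without the drug. There was 1 list of peak positions per line, with no peak height, p-value or read count, so the depth is unknown and no spread between replicates could be had. Whether a list pools replicate precipitations is not given in the sources used here. The lists held 10778 peaks in the parental line and 25180, 21888, 9595 and 6820 distinct peaks in R100, R500, R1000 and R4000. Length of list, dose and time in culture move together and cannot be told apart. Intervals below are 95% Wilson intervals, which cover counting of regions or genes only.

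H3K27me3, trimethylation of lysine 27 on histone H3, is placed by Ezh2, the catalytic subunit of polycomb repressive complex 2 (PRC2), and is read by PRC1. In mammals it is known for lying over CpG islands of silent developmental genes, such as Hox and other transcription factor genes. In B cells PRC2 is most prominent in germinal centre cells and in the lymphomas that resemble them.

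Short stretches of 6 persistent regions are shown to let the range of sequence in the set be seen. Each lies within bases covered by peaks in all 4 resistant lines, is read 5′ to 3′ on the plus strand of NCBIM37 (mm9), and has its CpG dinucleotides in capitals. The first, chr10:94406806-94407045, is 240 coding bases of Plxnc1, a semaphorin receptor, and holds 26 CpGs.
Plxnc1: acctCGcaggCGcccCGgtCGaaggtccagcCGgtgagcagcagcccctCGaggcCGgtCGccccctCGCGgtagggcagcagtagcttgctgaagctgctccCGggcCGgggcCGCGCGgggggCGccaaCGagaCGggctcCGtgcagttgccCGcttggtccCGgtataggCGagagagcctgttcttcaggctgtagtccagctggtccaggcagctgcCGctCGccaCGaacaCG
The second, chr1:130488306-130488545, lies in an intron of Cxcr4, the receptor of the chemokine Cxcl12, and holds 13 CpGs.
Cxcr4: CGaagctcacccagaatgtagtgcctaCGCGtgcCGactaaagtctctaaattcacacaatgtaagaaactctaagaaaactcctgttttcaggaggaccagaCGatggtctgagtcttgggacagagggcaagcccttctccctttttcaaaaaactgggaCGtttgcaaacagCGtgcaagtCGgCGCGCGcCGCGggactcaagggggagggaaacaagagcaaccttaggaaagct
The third, chr1:9933801-9933950, is intergenic and flanks an annotated snoRNA. It has a GC content of 58.0%, in a region whose central 300 bp has only 36.7%.
snoRNA-flanking region: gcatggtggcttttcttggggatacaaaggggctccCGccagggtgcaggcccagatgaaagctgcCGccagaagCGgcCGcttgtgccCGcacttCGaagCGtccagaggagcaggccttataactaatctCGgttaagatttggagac
The fourth, chr4:124333851-124333950, lies upstream of Pou3f1, a POU homeobox factor.
Pou3f1: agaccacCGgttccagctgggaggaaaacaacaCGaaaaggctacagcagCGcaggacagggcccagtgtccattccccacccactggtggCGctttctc
The fifth, chr15:76735051-76735200, crosses an exon end inside Rpl8, which encodes a protein of the large ribosomal subunit, with 60 coding bases.
Rpl8: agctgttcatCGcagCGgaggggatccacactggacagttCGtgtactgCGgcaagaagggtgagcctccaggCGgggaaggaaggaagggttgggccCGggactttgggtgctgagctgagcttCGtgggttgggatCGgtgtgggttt
The last, chr9:3025406-3025645, is from an AT-rich block near the start of chromosome 9, with a GC content of 34.2% and 5 CpGs.
chromosome 9 block: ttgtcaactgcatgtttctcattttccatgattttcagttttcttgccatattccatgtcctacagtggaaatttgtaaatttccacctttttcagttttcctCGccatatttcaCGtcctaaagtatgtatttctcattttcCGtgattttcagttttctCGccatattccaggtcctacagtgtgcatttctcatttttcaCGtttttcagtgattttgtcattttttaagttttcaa

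Of the 4852 regions gained in both R100 and R500, 36.2% (95% CI 34.9 to 37.6%) were found again at high dose. Over all 32728 regions that the parental list lacked and either R100 or R500 held, the share was 9.45%. Regions gained in R100 without R500 were found at high dose in 4.81% of 15715 cases, and those gained in R500 without R100 in 4.78% of 12161. With the lists cut to equal number, 6820 of the widest peaks each, 948 regions persisted and the share was 58.3%, and with peaks under 500 bp left out 277 persisted (27.8%). Among the persistent regions 825 (47.0%, 95% CI 44.6 to 49.3%) had a peak in R1000 and not in R4000. A further 456 (26.0%, 95% CI 24.0 to 28.1%) had one in R4000 and not in R1000, and 476 (27.1%, 95% CI 25.1 to 29.2%) had one in both.

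The longer a region was in R100 and R500, the more often it was among the persistent ones. Taking the smaller of the lengths covered in R100 and R500, 17.3% (95% CI 15.1 to 19.6%) of regions with 50 bp, the width of 1 bin of the lists, were found again. This share was 25.9% at 100 bp, 42.6% at 150 to 200 bp and 56.7% at 250 to 400 bp. Of the 328 regions with at least 450 bp, 262 were found again (79.9%, 95% CI 75.2 to 83.9%). Covered length comes from the same lists as the rule and is given as a description. A longer region also offers more bases for a peak of another list to overlap, and the part of this in the shares was not tested.

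**Figure D1:**
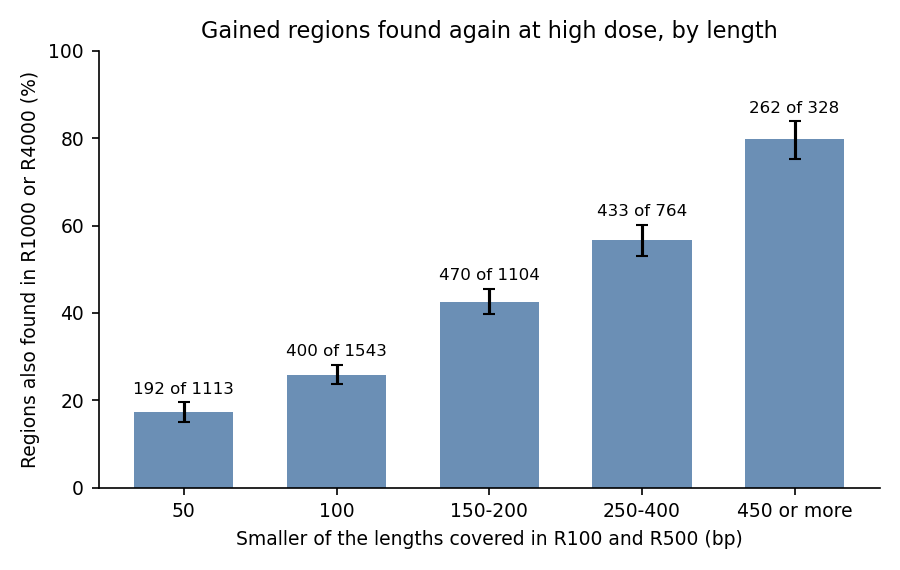
Share of the 4852 regions gained in both R100 and R500 that also had a peak in R1000 or R4000 (vertical axis, %), by the smaller of the lengths covered in R100 and R500 (horizontal axis, bp). Bars are shares with 95% Wilson intervals, and the share is 17.3% in the shortest class and 79.9% in the longest.

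At high dose the persistent regions were mostly covered over a shorter stretch. The median covered length was 300 bp (quartiles 150 and 450) in R100 and 250 bp (150 and 400) in R500. It was 100 bp in R1000 (100 and 200, over 1301 regions with a peak) and 100 bp in R4000 (50 and 200, over 932). R1000 was covered over fewer bases than R100 in 997 of 1301 regions and over more in 148. R4000 was covered over fewer than R100 in 735 of 932 and over more in 89. Between the high-dose lines the lean was smaller, since among the 476 regions with both, R4000 was shorter in 223, equal in 89 and longer in 164. Regions found in both R1000 and R4000 were the longest in R100, with a median of 400 bp, against 250 bp for those found in only 1 of them and 150 bp for transient regions.

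**Figure D2:**
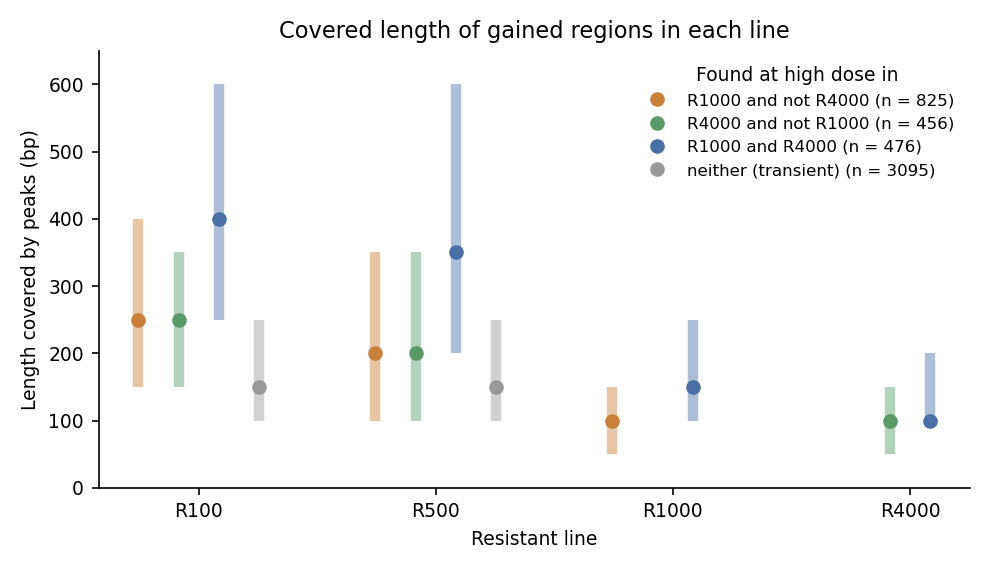
Length covered by peaks (vertical axis, bp) in each resistant line (horizontal axis) for gained regions split by where they were found at high dose. Points are medians and bars run between the quartiles over regions with a peak in that line, and regions found in both R1000 and R4000 have medians of 400 bp in R100 and 100 bp in R4000.

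The regions were built from overlapping peaks, so the overlap of high-dose with low-dose peaks is largely set by the rule and is given as a description. Of the 203.1 kb covered in R1000 within persistent regions, 54.1% was covered in both R100 and R500, 35.9% in 1 of them and 9.97% in neither. For the 133.65 kb of R4000 these shares were 55.1%, 34.5% and 10.5%. Persistent regions made up 11.9% of all covered bases of the R100 list, and 12.1%, 12.6% and 12.4% of those of R500, R1000 and R4000.

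The edges of the rule were not sharp. For 379 members all high-dose coverage was 50 bp, 177 had a parental peak within 200 bp, and 59 of these touched it without sharing a base. On the other side, 433 transient regions had a peak of R1000 or R4000 within 200 bp.

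By the smallest length over the 4 resistant lines, the leading region was in Lrig1, a leucine-rich repeat protein that restrains growth factor receptors. It spans chr6:94648951-94649750 with 224 coding bases, with peaks over 650 bp in R100, 550 in R500, 650 in R1000 and 500 bp in R4000. Its length thus hardly differed between low and high dose, and a parental peak lay 251 bp away. The Plxnc1 region (chr10:94405851-94407150) was covered over 1100, 1100, 800 and 500 bp in the same order, and the Efhd1 region over the TSS of that calcium-binding protein gene (chr1:89160301-89161700) over 1250, 1250, 1150 and 400 bp. Both had their shortest stretch in R4000.

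The Cxcr4 region (chr1:130488001-130488750) kept 700 bp in R4000 beside 750 in R100, 700 in R500 and 450 in R1000. Cxcr4 retains B-cell precursors in the bone marrow, and no parental peak lay within 29251 bp. At the region flanking an annotated snoRNA (chr1:9933151-9934050) the longest coverage was at high dose, where R1000 had 800 bp and R4000 550 bp beside 400 in R100 and 700 in R500. The sixth, chr11:53292201-53293650, is wholly exonic in Ankrd43, an ankyrin repeat gene, and was covered over 1100, 1200, 400 and 600 bp. Of these 6 regions, 3 had no parental peak within 10 kb.

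The widest region of all was in Otx1, a homeobox factor of the forebrain (chr11:21899151-21901250, 2100 bp), and shortened from 2100 bp in R100 to 1100, 350 and 250 bp. A pair of regions of 1850 bp each came next, 1 in Mmp9, a matrix metalloproteinase, and 1 overlapping the end of Skor1, a transcriptional corepressor. Mmp9 was covered over 1850 bp in R100, 1250 in R500, 500 in R1000 and 0 bp in R4000. That of Skor1 was covered over 1550, 1250, 1050 and 150 bp. The region in Uncx, a homeobox gene of the axial skeleton, was longest in R500, with 1350 bp against 650 in R100, 400 in R1000 and 0 bp in R4000. The remaining one of the 5 widest, chr11:85657851-85659600, is intergenic and was covered over 1650, 1300, 650 and 0 bp. None of the 5 was covered over more than 250 bp in R4000.

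Among regions found in R1000 and not R4000, those with the longest R1000 coverage lay in Ebf3 and Sox4, with 800 bp each. Ebf3 belongs to the family of the B-cell factor Ebf1, and its region (chr7:144502751-144503650) was covered over 450 bp in R100 and 550 in R500, with a parental peak 51 bp away. Sox4 is an HMG-box factor needed for early B-cell development, and its region (chr13:29043451-29044750, 1180 coding bases) was covered over 850 and 1200 bp. Among those found in R4000 and not R1000, a second region in Skor1 had 550 bp in R4000 and 1150 and 1350 bp in R100 and R500. It was followed by 400 bp beside a non-coding transcript (chr4:129637151-129637600) and 400 bp in Arhgef19, a guanine nucleotide exchange factor gene. A blank in 1 high-dose line therefore also occurred at regions over 1 kb long at low dose.

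Persistent regions sat close to transcription start sites (TSSs). Of the 1757, 994 (56.6%, 95% CI 54.2 to 58.9%) lay within 1 kb of the TSS of an annotated gene, against 28.5% of all union regions, 42.5% of transient regions and 60.7% of the 1678 regions present in all 5 lists. Within 5 kb these shares were 78.8% of persistent regions, 53.8% of all union regions, 68.7% and 81.7%. Position was not used by the rule, and the difference from transient regions was also present among regions of like length. With 50 bp as the smaller low-dose length, 54.2% (95% CI 47.1 to 61.1%) of persistent and 38.0% (95% CI 34.9 to 41.2%) of transient regions lay within 1 kb. At 250 to 400 bp the shares were 59.6% (95% CI 54.9 to 64.1%) and 48.0% (95% CI 42.7 to 53.4%). At 450 bp or more they were 58.8% and 51.5%, with intervals that overlapped. Regions are not replicates of a line, and no test was made of these shares.

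Most centres lay downstream of the TSS, in the transcribed part of the gene. This held for 66.9% (95% CI 64.4 to 69.3%) of the 1384 persistent regions within 5 kb, for 63.2% of the transient ones and for 63.7% of those in all 5 lists. The median position was 352 bp downstream. Of the persistent regions 44.4% overlapped an annotated exon, 27.7% lay only in introns and 27.9% were intergenic. The exonic share was 32.0% in transient regions, 57.2% in regions of all 5 lists and 20.4% over all union regions. Median widths were 400 bp in persistent regions, 200 bp in transient regions, 1000 bp in regions of all 5 lists and 100 bp over all union regions. The part of width in these shares was not tested.

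**Figure D3:**
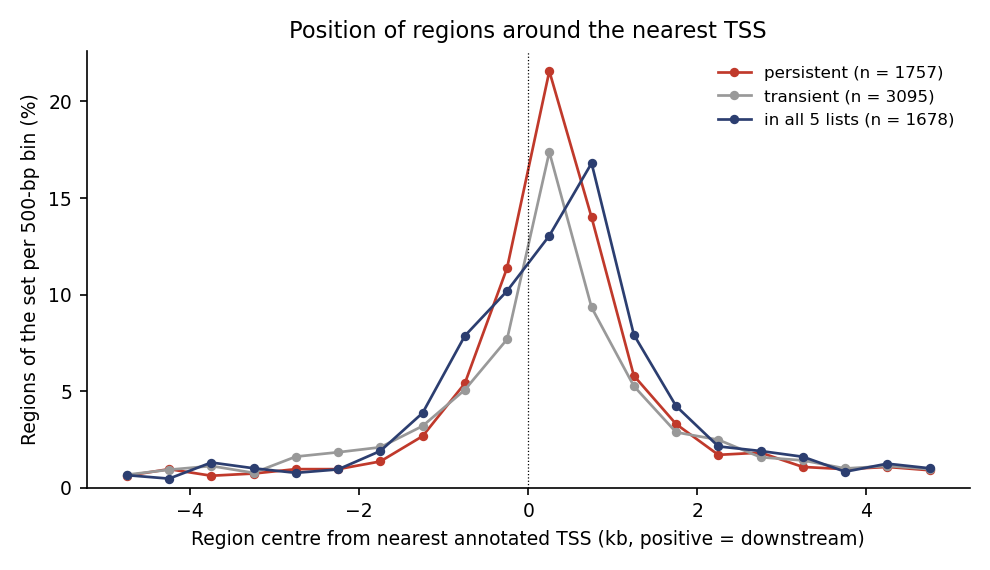
Share of each set of regions per 500-bp bin (vertical axis, %) by the distance of the region centre from the nearest annotated TSS (horizontal axis, kb, positive downstream) for persistent, transient and all-list regions. Persistent and transient regions peak in the first bin downstream and regions in all 5 lists in the second.

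The sequence of the persistent regions was rich in CpG. In the 300 bp at the centre, the median GC content was 56.7% (quartiles 51.3 and 63.0%), against 54.7% in transient regions, 55.3% in regions of all 5 lists and 50.7% in all union regions. The ratio of observed to expected CpG, which is low where methylated cytosines have been lost over evolution and high in CpG islands, had a median of 0.567 (quartiles 0.347 and 0.770). It was 0.418 in transient regions, 0.562 in regions of all 5 lists and 0.292 over all union regions. Within each of the 5 length classes persistent regions had the higher median ratio, from 0.535 against 0.369 at 50 bp to 0.622 against 0.566 at 450 bp or more. By this measure the persistent regions lay nearer to the regions marked in every line than to the transient ones. Regions found in both high-dose lines had a median ratio of 0.651, those in R4000 only 0.616 and those in R1000 only 0.506.

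Short motifs were searched on both strands of the same windows. CCGCCC, the core of the GC box, was in 28.7% (95% CI 26.7 to 30.9%) of persistent windows and 23.4% of transient ones, with 15.4% over all union regions. TATAAA was in 5.24% (95% CI 4.29 to 6.38%), with 9.25% over all. Of the E-box forms that E2a-type factors bind, CAGGTG was near its background, in 25.6% (95% CI 23.6 to 27.7%) against 24.1%. CAGCTG was a little below it, in 15.8% (95% CI 14.1 to 17.5%) against 17.9%, with 19.7% in transient windows. GAGGAA, an Ets-type core, was in 28.3% against 28.2%. GAGAGA was in 23.7% against 27.6% and CACACA in 20.3%, against 25.6% over all. These contrasts depend on the window, as whole regions gave other shares. A match is a run of letters and not a bound site.

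The persistent regions divided by their distance to the parental mark. Of the 1757, 730 (41.5%) had a parental peak within 1 kb outside the region, against 21.3% of all union regions without a parental peak of their own. Within 5 kb the shares were 58.1% and 41.9%, and for transient regions they were 34.5% within 1 kb and 56.2% within 5 kb. At the other end 647 (36.8%, 95% CI 34.6 to 39.1%) had no parental peak within 10 kb, against 50.4% of all such union regions. These remote regions had the higher CpG ratio, 0.677 against 0.482 for those within 1 kb of a parental peak, and lay within 1 kb of a TSS in 75.1% (95% CI 71.6 to 78.3%) of cases against 46.0% (95% CI 42.4 to 49.7%). Transient regions divided in the same direction, with a CpG ratio of 0.581 for remote ones and 0.333 for those within 1 kb, and 60.3% and 33.5% within 1 kb of a TSS. Distance to the parental mark was not used by the rule beyond the absence of a peak in the region itself.

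In all, 1082 of 22225 protein-coding genes (4.87%) had a persistent region within 2 kb of the TSS. Lists of developmental regulators had higher shares. Homeobox genes did so in 36 of 160 cases (22.5%, 95% CI 16.7 to 29.6%), the Sox, T-box, Gata and Fox families in 18 of 84 (21.4%, 95% CI 14.0 to 31.3%), and tissue bHLH factors in 9 of 49 (18.4%, 95% CI 9.98 to 31.4%). These higher shares were not particular to the persistent regions. A transient region lay within the same distance for 29.4% of homeobox genes, 23.8% of the Sox, T-box, Gata and Fox genes and 20.4% of tissue bHLH genes, against 6.40% of all genes. A region found in all 5 lines did so for 35.0%, 20.2% and 32.7%, against 4.05% of all genes. The Wnt, Fgf, Bmp and Gdf signalling genes had a persistent region in 10 of 87 cases (11.5%, 95% CI 6.36 to 19.9%) and a transient one in 20.7%. Potassium channel genes, with 7 of 92 (7.61%, 95% CI 3.73 to 14.9%), had an interval that included the share over all genes. Of 36 protocadherin genes none did.

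**Figure D4:**
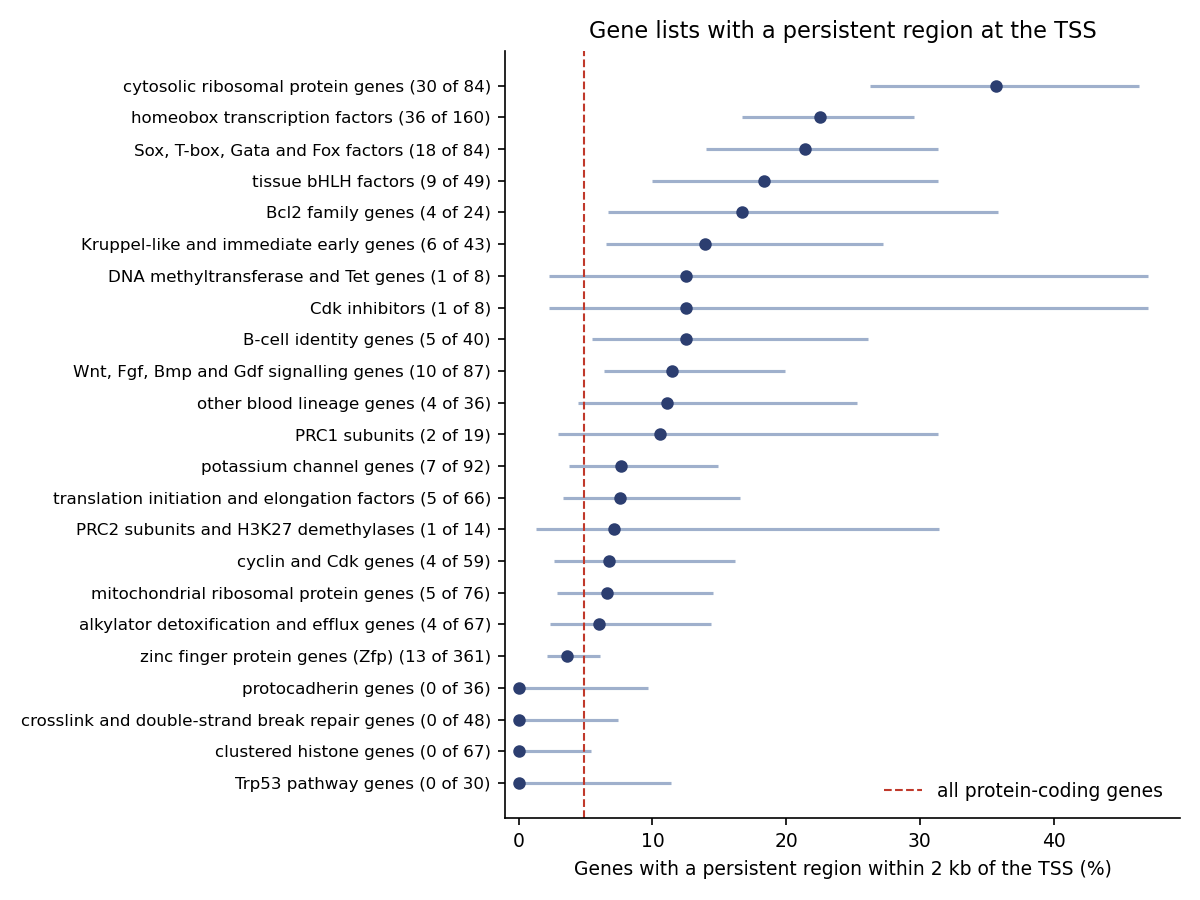
Share of the genes of each list with a persistent region within 2 kb of the TSS (horizontal axis, %, with 95% Wilson intervals) for 23 lists (vertical axis, with gene counts). The broken line is the share over all protein-coding genes, 4.87%, and the ribosomal protein and developmental factor lists lie to its right.

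The homeobox genes were marked by 45 persistent regions that lay on either side of the TSS, 24 of them downstream. Most were beside parental peaks, since 25 had one within 1 kb and 2 had none within 10 kb. Peaks were found in R1000 at 39 of them (86.7%) and in R4000 at 19 (42.2%), where all persistent regions had 74.0% and 53.0%. Their median covered length was 250 bp in R100, 300 in R500, 100 in R1000 and 0 bp in R4000. Regions without a peak in a line count as 0 bp here, unlike in the medians over all persistent regions given above.

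Otx1 was described above. Pou3f1, which acts in neural and Schwann cell development, had 2 regions, the larger with 1050 bp in R100, 950 in R500, 450 in R1000 and 250 bp in R4000. Pou3f3, a relative of it, had 950, 950, 350 and 400 bp. In the Hoxb cluster, which patterns the body axis, Hoxb8 had 700, 850, 100 and 100 bp at 1 region and 300, 300, 150 and 200 bp over its coding sequence at another. Hoxb6 had 1100, 500, 250 and 0 bp at its larger region, and Pitx1, a hindlimb factor, had 800, 700, 300 and 0 bp. In each of these the low-dose lines had the longer stretch.

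Of the other developmental families, Tbx15 differed in that R4000 had 600 bp, nearly as much as R100 and R500 with 650 bp each, and R1000 had 300. Sox21, a neural progenitor factor, had 2 regions, with 350, 400, 50 and 350 bp at the larger. Neurod2, a neuronal bHLH factor, was covered over 1250, 850, 350 and 600 bp, and Sim2 over 800, 1000, 350 and 0 bp. Wnt1 had 850, 650, 100 and 350 bp, and Ihh, a hedgehog ligand in the signalling list, had 1400, 1150, 200 and 0 bp. Of the genes just given, coverage in R4000 was longer than in R1000 at Tbx15, Sox21, Neurod2 and Wnt1 and shorter at Sim2 and Ihh. Among the other genes of these lists that the naming rule took in, both orders occurred. A shorter stretch in R4000 was the more frequent order among those others. Hes5, an effector of Notch, was covered over 700, 300, 0 and 50 bp.

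The genes with most persistent regions in or within 5 kb of the gene followed the same families in part. Uncx had 7 regions, 6 of them with a peak in R1000 and 3 with one in R4000, and together they were covered over 2600 bp in R100, 3000 in R500, 1100 in R1000 and 350 bp in R4000. Hoxc4 also had 7, covered over 1350, 2100, 700 and 300 bp. Egflam, an extracellular matrix gene of 192 kb, had 7, all of them with a peak in R1000 and 3 with one in R4000. Fgfr2 had 7 in a gene model that spans 3009 kb in this annotation, and the predicted gene Gm20388 had 13 in 4435 kb. Gm10718, a predicted gene inside the chromosome 9 block, had 7. Set against all union regions in the same stretch, these were 7 of 41 at Uncx and at Hoxc4 and 7 of 62 at Egflam. They were 7 of 181 at Fgfr2, 13 of 344 at Gm20388 and 7 of 7 at Gm10718. Over the genome 1757 of 47264 union regions were persistent, and the shares at Fgfr2 and Gm20388 were near that.

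Cytosolic ribosomal protein genes had the highest share of all lists, 30 of 84 (35.7%, 95% CI 26.3 to 46.4%). These genes are transcribed at high levels in growing cells and are not among the usual polycomb targets. For 8 of the 84 (9.52%) a transient region lay within 2 kb of the TSS, and for 20 (23.8%) a region found in all 5 lines. Over all genes these shares were 6.40% and 4.05%. The higher share of ribosomal protein genes was thus also present among regions found in every line. A peak of any kind within 2 kb of the TSS was listed for 27 of the 84 in the parental line, for 67 genes in R100 and 69 in R500, and for 53 in R1000 and 62 genes in R4000. For all protein-coding genes the numbers were 1849, 6281, 4774, 2800 and 2479 of 22225. The ribosomal protein genes were thus a list in which more genes had a peak in R4000 than in R1000, while over all genes R1000 had more.

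Their 31 persistent regions were placed alike. All 31 centres lay downstream of the TSS, from 292 to 1848 bp with a median of 540 bp, and 30 lay between 250 and 900 bp. In the 5 kb upstream of the TSS 0 of the 84 genes had a persistent region. A parental peak lay within 1 kb of only 2 of them and 25 had none within 10 kb, the reverse of the homeobox regions. R4000 had a peak at 26 (83.9%) and R1000 at 19 (61.3%). The median covered length was 400 bp in R100, 250 in R500, 100 in R1000 and 150 bp in R4000, again with 0 bp for regions without a peak.

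Rpl8 was covered over 1000 bp in R100, 500 in R500, 300 in R1000 and 750 bp in R4000. Rps15, which encodes a protein of the small subunit, was covered over 650, 850, 300 and 200 bp. In Rpl27 and Rpl23 the longest stretch was in R1000, with 600 bp at Rpl27 against 250, 450 and 250 in R100, R500 and R4000, and 500 bp at Rpl23 against 400, 450 and 150. Rpl37a had 600, 350, 450 and 250 bp. No order of the high-dose lines was common to these 5 genes.

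Other genes of the protein synthesis machinery had lower shares. Mitochondrial ribosomal protein genes had a persistent region in 5 of 76 cases (6.58%, 95% CI 2.84 to 14.5%) and translation initiation and elongation factors in 5 of 66 (7.58%, 95% CI 3.28 to 16.5%). Both intervals include the 4.87% of all genes. By length summed over the 4 lines the longest was at Eef2, the elongation factor that moves the ribosome along the mRNA, with 950 bp in R100, 600 in R500, 400 in R1000 and 250 bp in R4000, centred 550 bp downstream of its TSS.

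For the damage response, detoxification, cell cycle, histone and Zfp lists that follow, every interval included the 4.87% of all genes. No persistent region lay within 2 kb of the TSS of 30 p53 (Trp53) pathway genes (interval up to 11.4%), 48 crosslink and double-strand break repair genes (up to 7.41%) or 67 clustered histone genes (up to 5.42%). Of 67 detoxification and efflux genes 4 had one (5.97%, 95% CI 2.35 to 14.4%), among them Gstt1, a glutathione transferase, with 150, 250, 0 and 50 bp. Of 59 cyclin and Cdk genes 4 did (6.78%, 95% CI 2.67 to 16.2%), among them Ccnd1, a cyclin of G1, with 350, 350, 0 and 50 bp. Cdkn1b, the inhibitor p27, was the 1 of 8 Cdk inhibitors with a persistent region (95% CI 2.24 to 47.1%), covered over 200, 200, 100 and 0 bp. Of 361 Zfp zinc finger genes 13 did (3.60%, 95% CI 2.12 to 6.06%).

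Of 24 Bcl2 family genes 4 had a persistent region (16.7%, 95% CI 6.68 to 35.9%). A transient region lay within the same distance for 3 of the 24 (12.5%), against 6.40% of all genes. The 4 genes, Bok, Hrk, Bik and Bak1, encode promoters of apoptosis, and how many of the 24 do so was not counted. Bok was covered over 450 bp in R100, 700 in R500, 100 in R1000 and 0 bp in R4000. Hrk had 2 regions, the larger with 400, 350, 50 and 50 bp. At Bik (50, 300, 0 and 200 bp) the region touched a parental peak, and Bak1 had 50, 200, 150 and 0 bp. No high-dose line had more than 200 bp at any of the 4.

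Among 40 B-cell identity genes 5 had a persistent region (12.5%, 95% CI 5.46 to 26.1%). A transient region lay within the same distance for 22.5% of them, and a region in all 5 lines for 5.0%. Over all genes these shares were 6.40% and 4.05%. Cd24a, a surface protein of B-cell precursors, had 2 regions, the larger with 200 bp in R100, 250 in R500, 200 in R1000 and 150 bp in R4000, close to equal in the 4 lines. Tcf12, an E-protein, had 300, 200, 200 and 200 bp at its larger region, E2f2, an E2F factor that the list held, had 400, 400, 100 and 150 bp, and Ikzf1, the lymphoid factor Ikaros, had 250, 300, 0 and 100 bp. Of 36 genes of other blood lineages 4 had a persistent region (11.1%, 95% CI 4.41 to 25.3%), Tbx21, Epor, Lyl1 and Tal1. Their share with a transient region was also 11.1%. Peak lists give no expression, so the labelled cell type could not be checked. At the TSSs of Cd79a and Ms4a1, which mark B cells, Cd3e and Cd8a, which mark T cells, and Itgam and Csf1r, which mark myeloid cells, no list had a peak within 2 kb.

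Of 43 Krüppel-like and immediate early genes 6 had a persistent region (14.0%, interval 6.56 to 27.3%), among them Fosl2, Dusp2, Klf2 and Fos. The share over all genes was 4.87%. For 4 of the 43 (9.30%) a transient region lay within 2 kb of the TSS, and for 15 (34.9%) a region found in every line. Over all genes these shares were 6.40% and 4.05%. The higher share of this list was thus also present, and larger, among regions found in every line. Myc had 2 regions upstream of its TSS, 1 with 250 bp in R100, 350 in R500, 0 in R1000 and 50 bp in R4000, and 1 with 350, 200, 100 and 150 bp. A parental peak lay 1251 and 651 bp from them. Reads of the Eμ-Myc transgene and of the endogenous locus cannot be told apart.

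For 3 lists of chromatin genes the intervals all included the 4.87% of all genes. Of 14 PRC2 subunit and H3K27 demethylase genes Phf19 had a persistent region (7.14%, 95% CI 1.27 to 31.5%), with 300, 100, 0 and 100 bp. Of 19 PRC1 genes Pcgf1 and Pcgf2 had one (10.5%, 95% CI 2.94 to 31.4%), and of 8 DNA methyltransferase and Tet genes Dnmt3b did (12.5%, 95% CI 2.24 to 47.1%), which places methylation on unmethylated CpGs. Dnmt3b was covered over 250 bp in R100, 200 in R500, 0 in R1000 and 300 bp in R4000, and the nearest parental peak was 63401 bp away. Besides Myc it was the only one of 12 genes named in the study's text with such a region within 5 kb of the TSS. Within the Dnmt3b region the R4000 stretch was the longest of the 4 lines. Counting all peaks within 2 kb of the Dnmt3b TSS, R100 had the most, 550 bp, against 250 in R500, 0 in R1000 and 300 bp in R4000.

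Repeated sequence was rare, but it marked out 1 block. In 18 of the 1757 regions (1.02%, 95% CI 0.649 to 1.61%) at least 50% of the 31-base words of the central window occurred more than once in the genome. The share was 0.41% of all union regions, 0.226% of transient regions and 0.954% (95% CI 0.588 to 1.54%) of regions in all 5 lists. Of these 18, 15 lay in the block at the start of chromosome 9, whose stretch is shown above. The other 3 were nearest to Snora64, Fcgr3 and Hspa8. This block was singled out after its values had been seen. AT-rich tandem sequence of this kind is known in mouse as the major satellite, which is packed around centromeres and is largely left out of the assembly, with few of its many copies placed there. How the authors placed reads that match several sites is not given in the sources used here, and its part in these peaks was not tested.

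Between 2999901 and 3038250 on chromosome 9 there were 20 union regions, of which 16 were persistent, all 16 with peaks in all 4 resistant lines. The nearest parental peak was 4.28 Mb away. Covered lengths ranged from 150 to 550 bp in R100, from 50 to 350 in R500, from 150 to 600 in R1000 and from 200 to 600 in R4000. Summed over the 16, R100 had 5000 bp, R500 3400 bp, R1000 4900 bp and R4000 5800 bp. R4000 was covered over at least as many bases as R1000 in all 16, but over more in only 8. It was covered over more bases than R500 in 13. Elsewhere, among the 460 other regions with peaks in all 4 resistant lines, R4000 reached at least the R1000 length in 237 (51.5%, 95% CI 47.0 to 56.1%) and exceeded R500 in 51 (11.1%). The GC content of the 16 central windows was between 33.0 and 35.7%, and 17 of all 1757 had under 36%.

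**Figure D5:**
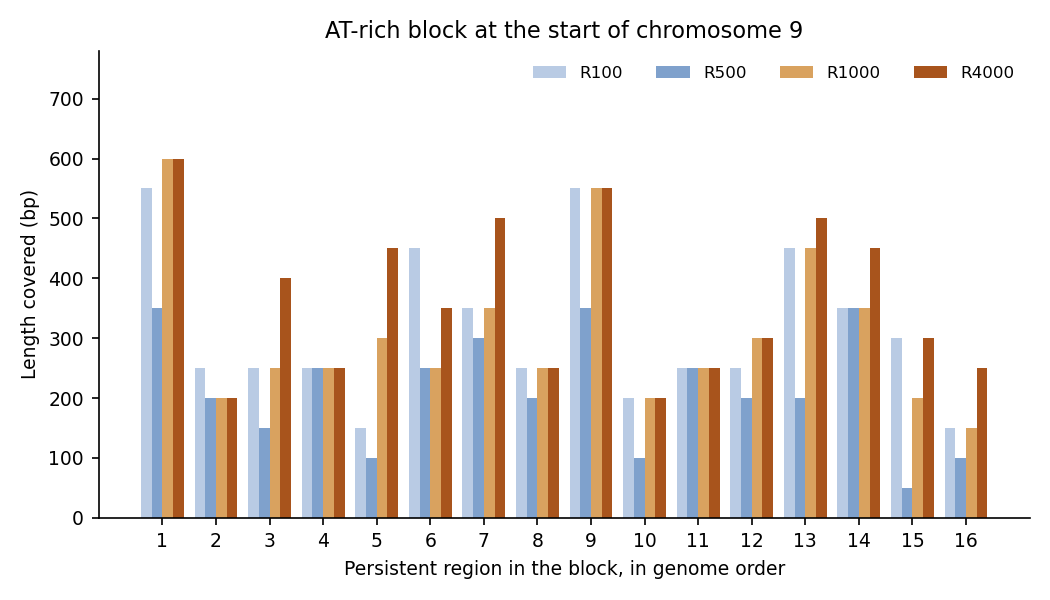
Length covered by peaks (vertical axis, bp) in R100, R500, R1000 and R4000 at each of the 16 persistent regions of the block at the start of chromosome 9, in genome order (horizontal axis). The parental line has no peak there. R4000 bars are at least as tall as R1000 bars in all 16, and taller in 8.

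By chromosome the share of gained regions that persisted ran from 30.5% (95% CI 26.2 to 35.0%) of 417 on chromosome 2 to 47.5% (95% CI 38.1 to 57.2%) of 101 on chromosome 16. The highest counts were 159 each on chromosomes 1 and 6 and 141 on chromosome 11, which held 4487, 4551 and 4153 of the union regions. Chromosome X held 14. The intervals of the highest and lowest chromosome did not overlap, but they were picked out of 20.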

How the data were processed

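ChIP-seq for H3K27me3 was done in 5 lines. The authors called peaks over input by Poisson statistics in tiled windows, and deposited 1 list per line with 3 columns, chromosome, start and end, so the values are positions in base pairs. The submitters' processing notes name Bowtie and mm9. The threshold of the lists is not given in the sources used here. All peaks lay within NCBIM37 (mm9) chromosome lengths. Each peak stands 2 times in the R100 and R500 lists and was counted once. The 5 RRBS samples were not analysed here.

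Peaks sharing at least 1 bp were merged with pandas 2.3.3 and numpy 2.4.6 under Python 3.11.15. The regions were those of bedtools 2.31.1 (0 differed), and presence calls were checked on simulated lists, base by base. TSSs were the 5′ ends of 37273 genes of the GENCODE annotation. Composition was read in 300-bp central windows. Repeated 31-base words were counted with numba 0.67.0, and figures were drawn with matplotlib 3.10.9. Covered length is the number of bases of a region inside peaks.

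Named regions were the 6 with the largest smallest length over the 4 resistant lines, the 5 widest, and the 3 longest per single high-dose line. Named genes were up to 6 per list by summed length, the 6 with most regions, and those of the study's text. Some genes that this rule takes in are not reported here. Lists matched whole protein-coding symbols. The regions and lists were chosen with earlier results of these data known. With 1 list per line no test was made. Alternatives were other peak widths, joining, presence minimums, lists of equal number, autosomes, TSS and parental distances, windows and, added after seeing the data, touching peaks, near parental peaks and repeated windows.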

Additional observations from a re-analysis of the deposited data

How the results depend on the processing

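No paired analysis was possible because each line has 1 list, and for the same reason no replicate could be left out. The number of regions was 1439 to 1974 under 6 of the 8 ways of counting tried. It was 277 with peaks of at least 500 bp and 948 when only the 6820 widest peaks of every list were kept. The share of gained regions that persisted was then 27.8% and 58.3%, and 39.3% with peaks within 1000 bp joined, against 36.2%. With peaks of at least 500 bp the persistent regions were 58.5% R1000 only, 18.8% R4000 only and 22.7% both, and with reduced lists 33.8% were R1000 only and 39.7% both. The share near a TSS was 56.6% within 1 kb, 67.1% within 2 kb and 73.9% for protein-coding genes only, against 78.8% within 5 kb of any gene. A parental peak was within 1 kb for 41.5% and within 10 kb for 63.2%. The CpG ratio was 0.616 in 1 kb windows. Over whole regions motif shares were 22.7% for CAGCTG, 33.0% for CAGGTG, 36.8% for GAGGAA, 31.6% for GAGAGA, 37.2% for CCGCCC, 27.6% for CACACA and 7.29% for TATAAA. Over all union regions, of median width 100 bp against 400 bp, they were 9.53%, 13.1%, 14.6%, 14.0%, 9.94%, 12.6% and 3.94% in that order. Within 5 kb upstream, 74 genes of any list had a persistent region, against 162 within 2 kb of the TSS. The ribosomal protein genes then went from 30 to 0 of 84. The 14 values under settings added after seeing the data stayed within the counting interval or within 1.5 times the count. With unknown depth, a missing peak does not show a missing mark.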
